A study of Rattus norvegicus with 6 samples.

Results

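The prostaglandin genes measured in these cultures were the cyclooxygenases Ptgs1 and Ptgs2, the terminal synthases Ptges, Ptges2, Ptges3 and Ptgis, and the prostaglandin E receptors Ptger1, Ptger2, Ptger3 and Ptger4. The 10 genes, of 14218 genes with a probe set of their own on the array, were taken as every probe set whose only gene symbol in the platform annotation was on this list, which gave 14 probe sets: 4 genes had 2 probe sets and 6 genes had 1. The samples were rat organotypic hippocampal cultures, slices of hippocampus from Wistar pups of postnatal day 4 kept alive in roller tubes. One set of cultures received gabazine (SR95531, an antagonist of the GABA-A receptor that releases neurons from inhibition) at 20 µM for 90 min, and the other set stayed untreated. Each condition had 3 arrays, and in each of the 3 biological replicas the treated and untreated cultures came from the same littermates, so that every comparison was made within a pair of arrays (pair 1, 2 and 3). All values are log2 intensities after RMA, which corrects the background and summarises the probes of a probe set. The array medians ran from 7.89 to 8.71, so that the 6 arrays were not brought to a common distribution. How they were scaled is otherwise not known here. Every log2 ratio is gabazine minus control.

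Prostaglandins are made in steps: a phospholipase or another lipase frees arachidonic acid from membrane lipids, a cyclooxygenase turns it into prostaglandin H, and a terminal synthase turns that into a particular prostanoid, which acts on receptors of the G protein-coupled kind. Ptgs1 is the largely constitutive cyclooxygenase, whereas Ptgs2 (COX-2) is an immediate early gene that excitatory neurons of hippocampus and cortex switch on after synaptic activity. Ptges is the inducible, glutathione-dependent synthase of prostaglandin E that is often induced together with Ptgs2.

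Ptgs2 had the largest log2 ratio of the members and was higher with gabazine in all 3 pairs, although the mean did not pass the threshold after adjustment over all probe sets. Its probe set (1368527_at) read 11.38, 10.48 and 12.66 in gabazine-treated cultures of pairs 1, 2 and 3, against 10.37, 8.97 and 9.29 in their untreated controls. The lowest gabazine array (pair 2) lay above the highest control array (pair 1), so that the groups did not overlap. A comparison of this kind crosses pairs whose array medians differed. The log2 ratios were 1.01, 1.51 and 3.37, which correspond to 2.02-fold, 2.85-fold and 10.3-fold higher intensity with gabazine. Pair 3 stood apart from the other pairs, although its arrays had the narrowest spread of ratios over all probe sets (SD 0.23, against 0.48 in pair 1 and 0.25 in pair 2). Among the ratios of all 31099 probe sets, that of Ptgs2 ranked 1238, 67 and 5 in pairs 1, 2 and 3, and its mean ranked 21.

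The mean log2 ratio of Ptgs2 was 1.96 (SE 0.59, n = 3 pairs), a 3.90-fold difference with a 95% confidence interval of 0.05 to 3.88 on the log2 scale. Here and below, each SE and interval is that of the limma fit, which moderates a probe set's variance with the variances of all probe sets. They are not the plain spread of the pairs, and the SD of the 3 Ptgs2 ratios was 1.24. The limma fit with the pair as a block gave an adjusted p of 0.747 (unadjusted p = 0.047), against the threshold of 0.05. Probe sets with different unadjusted p shared this adjusted value, so that it does not rank them. The unadjusted limma p was 0.0040 for Ptges 1368014_at and 0.20 for the brighter Ptgs1 probe set, both with an adjusted p of 0.747. The ratios shared their sign and differed in size: the mean difference was 2.40-fold without pair 3, 4.57-fold without pair 2 and 5.43-fold without pair 1. An exact two-sided sign-flip test gave p = 0.25, the smallest value that 3 pairs allow and the value of any 3 ratios of one sign. In bulk RNA of this kind, a change in the number of cells of a type and a change in the RNA of each cell cannot be told apart.

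**Figure D1:**
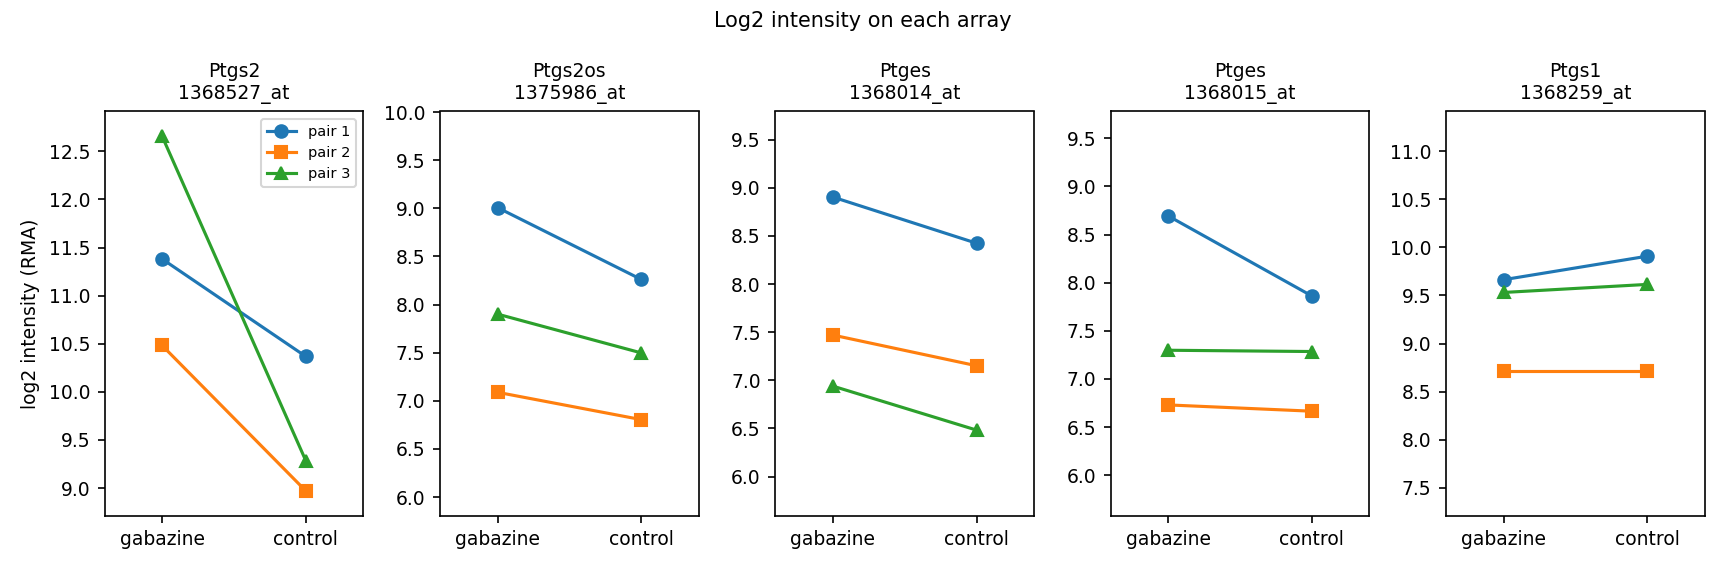
Log2 intensity (y axis) on each gabazine array (left) and control array (right) for Ptgs2, the neighbouring transcript Ptgs2os, both probe sets of Ptges and the brighter probe set of Ptgs1, with lines joining the arrays of a pair. Every y axis spans the same range in log2 units but is centred on its own probe set, since levels of different probe sets are not comparable; the gabazine arrays of Ptgs2 sit between 10.48 and 12.66 and its control arrays between 8.97 and 10.37.

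The paralogue Ptgs1 had ratios close to 0. Its brighter probe set (1368259_at) read 9.66, 8.71 and 9.53 in gabazine-treated cultures, against 9.91, 8.71 and 9.61 in controls. The mean log2 ratio was -0.11 (SE 0.07, n = 3 pairs; limma adjusted p = 0.747), with a 95% interval of -0.32 to 0.10. The dimmer probe set (1381806_at) had log2 ratios of 0.21, -0.10 and -0.11, and their mean was 0.00 with an interval of -0.30 to 0.30. Set against each other within the pairs, the log2 ratio of Ptgs2 exceeded that of the brighter Ptgs1 probe set by 1.26, 1.51 and 3.45 (mean 2.07 ± 1.20, SD, n = 3 pairs). The exact sign-flip test of this difference gave p = 0.25, the smallest value that 3 pairs allow.

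The upstream regions of the cyclooxygenases and of Ptges are shown here because Ptgs2 and Ptges were the member genes with a higher value in every pair, and Ptgs1 is the paralogue without it. The sequences are those of RefSeq (build GRCr8) for the 250 bases before the annotated start site, read 5′ to 3′ on the strand of the gene, with the matches to the motifs named next in capitals. The regions are chr13:64713813-64714062 on the plus strand for Ptgs2, chr3:34586988-34587237 on the minus strand for Ptges and chr3:39981169-39981418 on the plus strand for Ptgs1.
Ptgs2: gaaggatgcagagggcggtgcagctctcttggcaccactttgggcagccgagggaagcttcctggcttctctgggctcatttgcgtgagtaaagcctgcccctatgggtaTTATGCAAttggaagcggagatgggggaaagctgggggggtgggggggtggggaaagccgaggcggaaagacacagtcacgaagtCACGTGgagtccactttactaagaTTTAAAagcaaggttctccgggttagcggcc
Ptges: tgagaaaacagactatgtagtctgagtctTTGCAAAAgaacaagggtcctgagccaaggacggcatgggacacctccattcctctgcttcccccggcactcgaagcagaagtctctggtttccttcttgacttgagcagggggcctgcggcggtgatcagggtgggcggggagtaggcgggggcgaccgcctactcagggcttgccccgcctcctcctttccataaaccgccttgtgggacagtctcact
Ptgs1: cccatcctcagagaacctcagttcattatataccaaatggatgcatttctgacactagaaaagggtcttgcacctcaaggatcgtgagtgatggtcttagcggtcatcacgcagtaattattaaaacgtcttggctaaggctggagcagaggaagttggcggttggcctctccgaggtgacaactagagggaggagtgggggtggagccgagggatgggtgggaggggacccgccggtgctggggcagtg

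Such a window was given for 8 of the 10 members, and Ptges2 and Ptgis were without an entry. Motifs were searched on both strands: the cAMP response element (TGACGTCA) and its core (TGACG, contained in the longer motif), the E-box (CACGTG), a C/EBP motif (TTGCNNAA), the AP-1 motif (TGANTCA), the TATA box (TATAAA), the variant TTTAAA and the CArG box, the binding motif of serum response factor. The Ptgs2 window held the C/EBP motif on its minus strand at bases -140 to -133, the E-box at -55 to -50 and the TATA variant at -31 to -26, counted from the start site. Over all 33469 rat windows of the same length, 9.22% held the C/EBP motif, 5.59% the E-box and 12.3% the TATA variant. The Ptges window held the C/EBP motif at -221 to -214, and the Ptges3 window held the core of the cAMP response element at -6 to -2, a core that 18.2% of all windows held. The windows of Ptgs1 and of the 4 receptors held none of the motifs. The full cAMP response element, AP-1, TATAAA and CArG motifs were in none of the 8 windows, against 1.59%, 6.34%, 12.9% and 1.5% of all windows. These matches describe the letters in short windows and were not tested as sites of binding.

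The Ptgs2 window also contains the start of Ptgs2os, a long non-coding RNA that RefSeq places on the opposite strand and that begins 226 bases upstream of the Ptgs2 start. This transcript is outside the list of members and was chosen after its values were seen. Its probe set (1375986_at) read 9.01, 7.09 and 7.90 in gabazine-treated cultures, against 8.26, 6.80 and 7.50 in controls. The groups overlapped, and the ratio was above 0 in every pair. The log2 ratios were 0.75, 0.28 and 0.40, with a mean of 0.48 (SE 0.12, n = 3 pairs; limma adjusted p = 0.747). Whereas Ptgs2 had its highest ratio in pair 3, Ptgs2os had its highest ratio in pair 1.

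**Figure D2:**
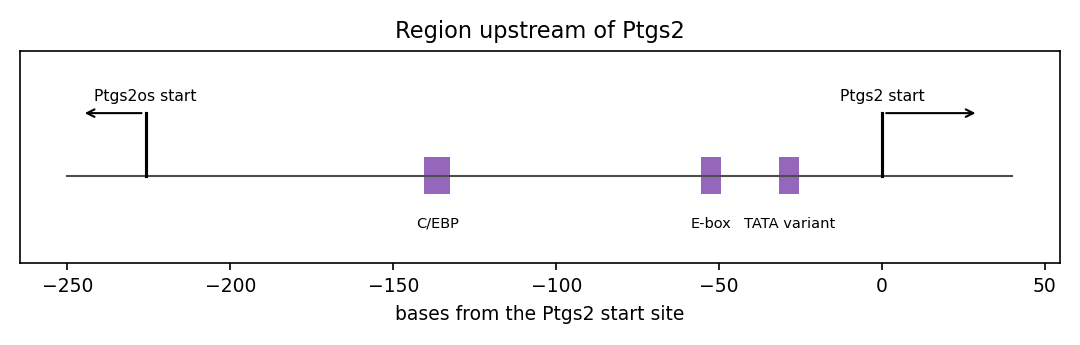
Start sites of Ptgs2 and Ptgs2os (arrows, pointing in the direction of transcription) and matches to the C/EBP, E-box and TATA variant motifs (boxes), by distance in bases from the Ptgs2 start site. The start sites lie 226 bases apart, and the 3 motif matches of the Ptgs2 window lie between them.

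Among the terminal synthases, Ptges was higher with gabazine on both of its probe sets in every pair, by a smaller amount than Ptgs2. Both probe sets were dim, at the 37.9th (1368014_at) and 35.9th (1368015_at) percentile of mean level. Whether they read above background is not known. The probe set 1368014_at read 8.90, 7.47 and 6.94 in gabazine-treated cultures, against 8.42, 7.15 and 6.48 in controls. The values of the 2 groups overlapped because the pairs differed in level by more than the arrays within a pair. The log2 ratios were close to each other at 0.48, 0.32 and 0.46, and their mean was 0.42 (SE 0.05, n = 3 pairs), a 1.34-fold difference with a 95% interval of 0.26 to 0.58. The limma adjusted p was 0.747, so that this difference too did not pass the threshold. The oligodendrocyte markers had median ratios of 0.41, 0.35 and 0.12 in the same pairs, and their part in the Ptges ratios was not tested. The Ptgs2 ratio exceeded that of this Ptges probe set by 0.53, 1.19 and 2.91 in the 3 pairs (exact sign-flip p = 0.25).

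The second Ptges probe set (1368015_at) read 8.69, 6.73 and 7.30 in gabazine-treated cultures, against 7.86, 6.66 and 7.28 in controls. Its log2 ratios of 0.83, 0.07 and 0.01 rested on pair 1, and the mean of 0.30 had an interval of -0.41 to 1.02. The probe sets of Ptges thus gave ratios of one sign and of different size. Pair 1 was also the pair with the widest spread of ratios over the array, in which 1265 probe sets were more than 2-fold higher with gabazine (213 in pair 2 and 99 in pair 3). For 3 rat control transcripts (beta-actin, GAPDH and hexokinase), the log2 ratio of the 5′ probe set minus that of the 3′ probe set had a median of 0.50 in that pair, and of -0.02 and -0.08 in pairs 2 and 3. Ttr, the transthyretin gene of the choroid plexus, had a log2 ratio of 4.59 in pair 1 and of 0.14 and 0.07 in the others. Folr1, a second gene of that tissue's list, had 0.59, 0.08 and 0.12, and the third measured gene of the list, Kl, was tied in pairs 1 and 2. The part of RNA quality or of choroid plexus tissue in the pair 1 ratios of the members was not tested.

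Ptgis, the prostacyclin synthase, shared this pattern, with log2 ratios of 0.65, -0.03 and 0.04 and a mean of 0.22 (95% interval -0.36 to 0.80). Ptges2, a membrane-associated prostaglandin E synthase, had ratios of -0.32, -0.01 and 0.27, which differed in sign between the pairs, and a mean of -0.02 with an interval of -0.48 to 0.44. Ptges3, better known as p23, a co-chaperone of Hsp90 with synthase activity, lay at the 99.0th percentile of mean level. It read 13.43, 13.13 and 14.16 in gabazine-treated cultures, against 13.55, 13.13 and 14.10 in controls, and its mean log2 ratio of -0.02 had an interval of -0.19 to 0.14.

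**Figure D3:**
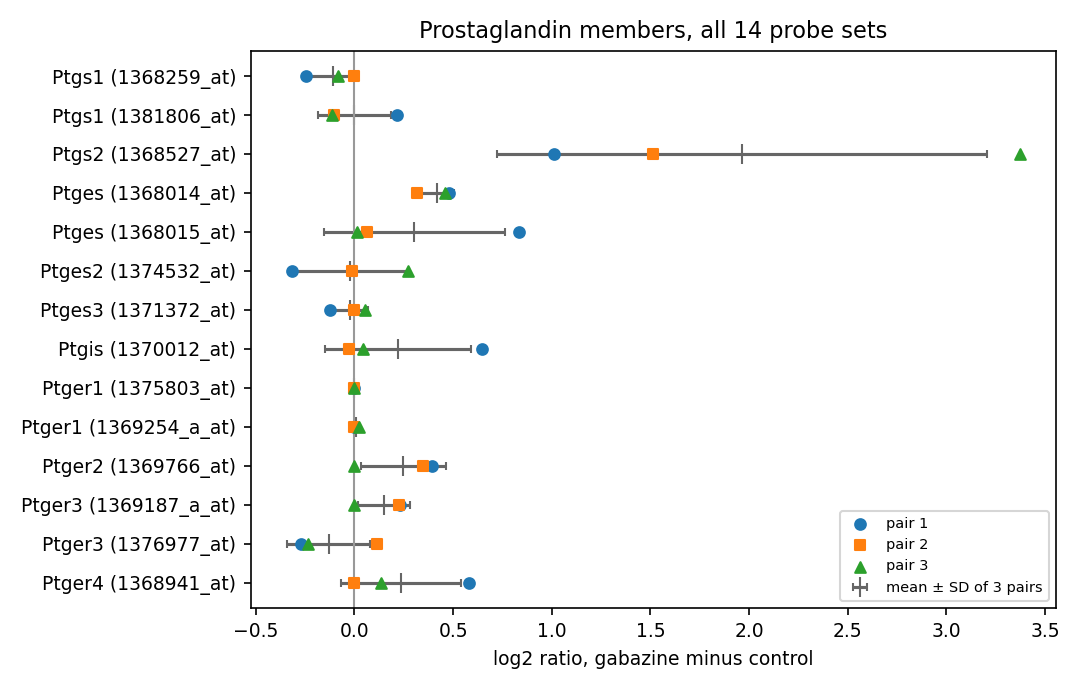
Log2 ratio of gabazine minus control (x axis) in each pair for all 14 member probe sets (rows), with the mean and SD of the 3 pairs. The 3 ratios of Ptgs2 lie between 1.01 and 3.37, and the means of the other 13 probe sets lie within 0.5 of 0.

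None of the receptors passed the adjusted threshold, and their mean log2 ratios lay between -0.13 and 0.25. Ptger2, which couples to Gs and raises cAMP, read 8.00, 6.17 and 7.33 in gabazine-treated cultures, against 7.61, 5.82 and 7.33 in controls. It was thus higher in pairs 1 and 2 and had the same value on both arrays of pair 3, and its mean log2 ratio was 0.25 (SE 0.11, n = 3 pairs; 95% interval -0.10 to 0.59). Ptger4, the other Gs-coupled receptor, had ratios of 0.58, 0.00 and 0.13, with a mean of 0.24 (interval -0.24 to 0.72).

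Ptger3, which couples to Gi and lowers cAMP, gave opposite means on its 2 probe sets. The probe set 1369187_a_at had ratios of 0.23, 0.22 and 0.00 (mean 0.15), and 1376977_at had ratios of -0.27, 0.11 and -0.23 (mean -0.13). Ptger1, a receptor linked to calcium signals, was at exactly the same value on both arrays of every pair on 1375803_at. Its second probe set (1369254_a_at), among the dimmest of the array, differed by 0.02 in pair 3 and was tied in the other pairs. The deposited values carry no detection measure, so that it is not known whether these dim probe sets read above background.

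Over the 14 member probe sets, 0 passed the adjusted threshold in either direction in the limma fit, as did 0% of all 31099 probe sets with a higher and 0% with a lower value. With an unadjusted p under 0.05, 2 member probe sets (Ptgs2 and Ptges 1368014_at) were higher and 0 lower, against 1.84% of all probe sets higher and 2.68% lower. A positive ratio in all 3 pairs was found for 3 of the 14 (Ptgs2 and both probe sets of Ptges), against 6.92% of all probe sets, and a negative ratio in all 3 pairs for 0, against 9.49%. All gabazine arrays lay above all control arrays for 1 member probe set, that of Ptgs2, against 0.289% of all probe sets. The median log2 ratio was 0.08 over the member probe sets and 0.00 over all probe sets.

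Identical values on both arrays of a pair occurred for 7 of the 14 member probe sets in at least 1 pair, against 47.4% of all probe sets, and a ratio of 0.00 can be such a tie. The cause of the ties was not tested. By pair, 8, 6 and 8 member probe sets were higher with gabazine in pairs 1, 2 and 3, while 4, 3 and 3 were lower. The remaining 2, 5 and 3 were tied.

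The genes whose 3 log2 ratios lay nearest to those of Ptgs2, by Euclidean distance over the brightest probe set of each gene, were Ccn1, Egr4, Arc, Rnf39 and Egr2. Ccn1 (Cyr61), which encodes a secreted matrix protein, had ratios of 1.17, 0.87 and 2.54 and lay at a distance of 1.06. Egr4, a zinc finger transcription factor, had ratios of 2.03, 1.74 and 2.94 (distance 1.13). Arc, a regulator of AMPA receptor endocytosis, had 2.58, 2.06 and 3.71 (distance 1.69). All of these are high ratios with pair 3 highest, as in Ptgs2. Rnf39, a RING finger gene, followed at 0.67, 0.96 and 1.79 (distance 1.71). Egr2, a second zinc finger factor of the Egr family, had 2.34, 2.12 and 2.41 (distance 1.74). The likeness follows from the way the genes were picked, rests on 3 pairs and is given as a description. In pair 1 the ratio of Ptgs2 was below those of all 5 except Rnf39, and in pair 3 it was above those of all 5 except Arc.

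**Figure D4:**
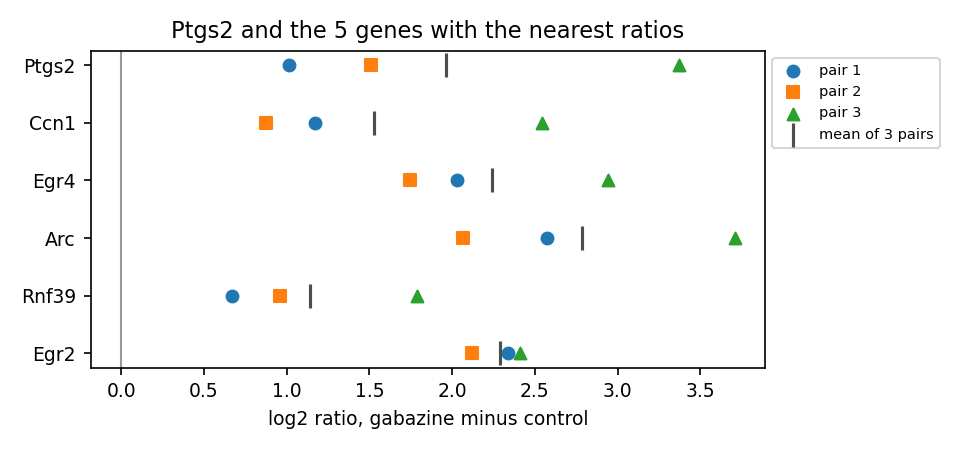
Log2 ratio of gabazine minus control (x axis) in each pair for Ptgs2 and the 5 genes with the nearest ratios (rows, nearest first under Ptgs2), with the mean of the pairs as a bar. Pair 3 holds the highest ratio of each gene, from 1.79 in Rnf39 to 3.71 in Arc.

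The rest of the pathway was read from lists of 39 genes for arachidonate release, other terminal synthases, other prostanoid receptors, transport and breakdown, and the lipoxygenase branch, of which 34 had a probe set of their own. None of the 34 passed the adjusted threshold in the limma fit. At an unadjusted p under 0.05, 2 were higher and 0 lower on the brightest probe set, against 2.37% of all genes higher and 2.84% lower. A positive ratio in every pair was found for 2 genes and a negative ratio in every pair for 2, against 7.79% and 10.8% of all genes. The median log2 ratio of the 34 genes was 0.00.

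The 2 genes with positive ratios in every pair, which were also the 2 at an unadjusted p under 0.05, were Akr1b1 and Alox5ap. Alox5ap, the protein that presents arachidonate to 5-lipoxygenase, had the highest mean of the lipoxygenase branch, with ratios of 0.37, 0.14 and 0.16 (mean 0.22; adjusted p = 0.747). Akr1b1, an aldose reductase with prostaglandin F synthase activity, was named after its values were seen and had ratios of 0.23, 0.11 and 0.41 (mean 0.25). Its dimmer probe set gave -0.31, 0.04 and 0.03.

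On the side of arachidonate release, the cytosolic phospholipase Pla2g4a had ratios of 0.00, -0.06 and 0.33. The lowest mean of the list was that of Plaa, an activator of phospholipase A2, at -0.27 (ratios of -0.52, -0.02 and -0.25), whereas its second probe set was at 0.03. Pla2g15, a lysosomal phospholipase named after its values were seen, was the other gene with negative ratios in every pair, at -0.31, -0.42 and -0.05 (mean -0.26). The highest mean was that of Plaat3, a phospholipase of adipose tissue, at 0.20.

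Ptgds, the lipocalin-type prostaglandin D synthase of leptomeninges and choroid plexus, varied most between the pairs. It read 14.32, 13.03 and 10.41 in gabazine-treated cultures, against 14.23, 9.83 and 11.00 in controls. The log2 ratios of 0.10, 3.20 and -0.59 differed in sign, and the mean of 0.90 had a 95% interval of -2.20 to 4.01 (limma adjusted p = 0.750). Its ratio was the third highest of the array in pair 2. The 4 fibroblast and meningeal markers had a median log2 ratio of 0.04 in that pair, with Col1a2 at 0.92 and Dcn at -1.24, and the mean level of that list ran from 8.89 to 11.03 on gabazine arrays and from 8.95 to 10.83 on control arrays. The 3 measured choroid plexus markers had median log2 ratios of 0.59, 0.08 and 0.11 in pairs 1, 2 and 3. The part of meningeal or choroid plexus tissue in the Ptgds ratio was not tested. Hpgds, the haematopoietic prostaglandin D synthase, had the lowest mean of the terminal synthases at -0.14.

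Of the remaining receptors, the thromboxane receptor Tbxa2r had the highest mean (0.09) and Ptgdr2, a receptor of prostaglandin D, the lowest (-0.01). In the breakdown of prostaglandins, the reductase Ptgr1 had the highest mean (0.15). Hpgd, the dehydrogenase that inactivates prostaglandin E, had the lowest, with ratios of -0.72, 0.40 and -0.19 (mean -0.17). Its dimmer probe set gave 0.32, 0.05 and -0.17, with a mean of 0.07. In the lipoxygenase branch the lowest mean was that of the leukotriene A hydrolase Lta4h (-0.17).

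**Figure D5:**
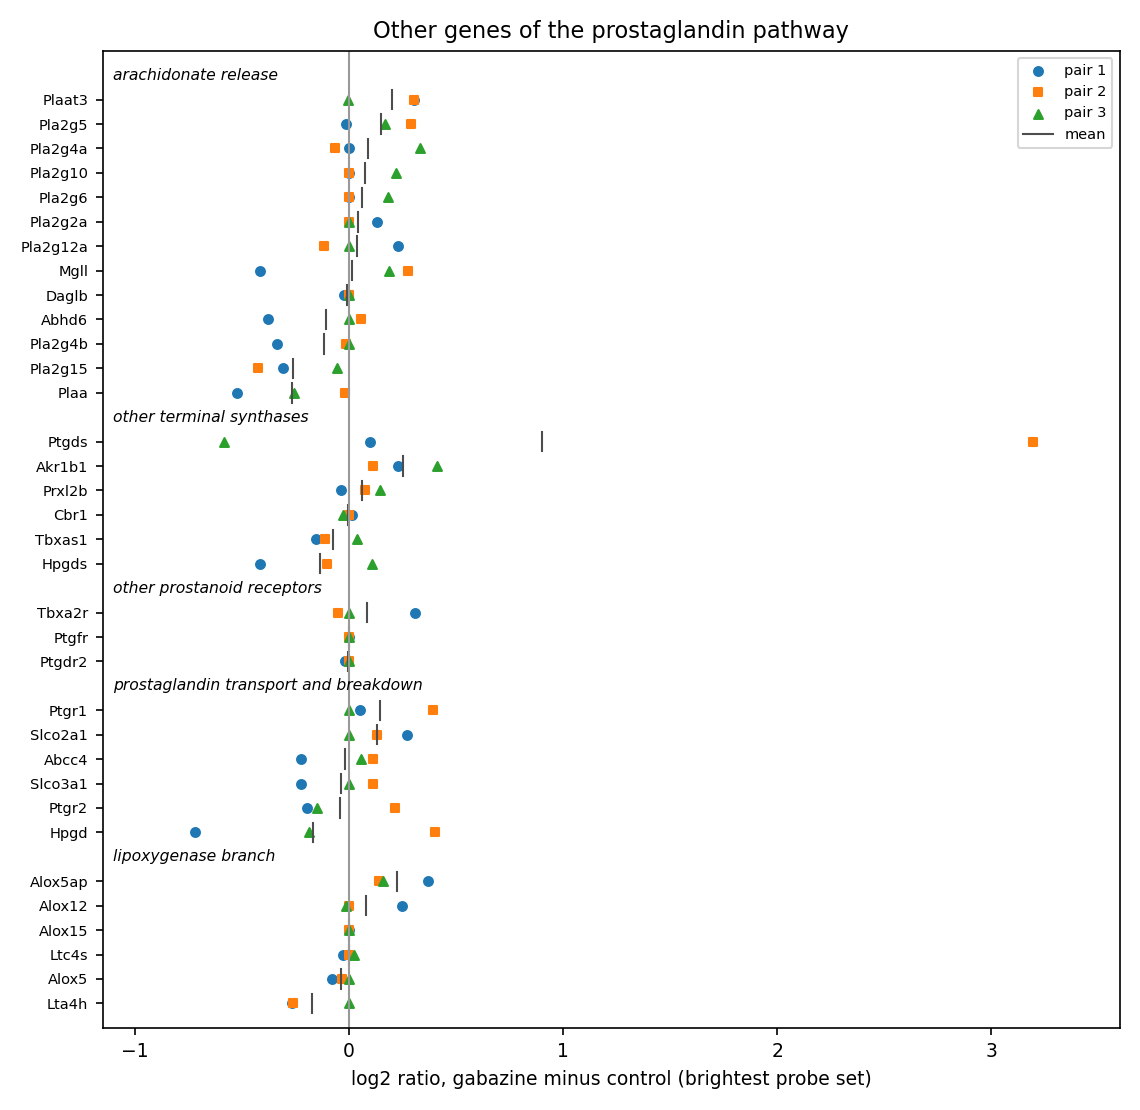
Log2 ratio of gabazine minus control (x axis) in each pair on the brightest probe set of the 34 other genes of the pathway (rows, grouped by list and ordered by mean), with the mean of the 3 pairs as a bar. Ptgds ran from -0.59 in pair 3 to 3.20 in pair 2, and the other means lay between -0.27 and 0.25.

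The arrays held the RNA of a mixed tissue. The 5 excitatory neuron markers were among the brighter probe sets of the arrays, between the 84.9th and 97.9th percentile of mean level, and the mean level of the list ran from 11.73 to 12.44 on gabazine arrays and from 10.99 to 12.62 on control arrays. Their median log2 ratio was -0.22, 0.64 and 0.17 in pairs 1, 2 and 3. On the brightest probe sets of that list only Nrgn (neurogranin) was higher in every pair, with ratios of 0.23, 0.38 and 0.49. The other markers of the list had their highest ratio in pair 2 on those probe sets. Slc17a7 had 0.00, 0.64 and 0.40, and Neurod6 had -0.22, 0.90 and 0.17. Camk2a had -0.40, 1.26 and -0.17, and Prox1 had -0.53, 0.53 and -0.54. The dimmer Slc17a7 probe set (1368986_at) was also higher in every pair, with 1.22, 0.29 and 0.47. No dimmer probe set of Camk2a or Prox1 was higher in every pair. The 3 measured oligodendrocyte markers had medians of 0.41, 0.35 and 0.12, and the mean level of the list ran from 11.05 to 11.96 on gabazine arrays and from 10.68 to 11.58 on control arrays. On their brightest probe sets 2 of the 3 were higher in every pair, Mbp with ratios of 0.26, 0.35 and 0.12 and Mog with 0.41, 0.47 and 0.21. Mag had 0.48, 0.31 and 0.00. The dimmer Mbp probe sets differed from this, with 2.31, 0.24 and -0.13 on 1387341_a_at and -0.11, 0.00 and -0.11 on 1383479_at. On their brightest probe sets, Nrgn, Mbp and Mog had an unadjusted p under 0.05 and a limma adjusted p of 0.747. The medians were 0.37, -0.18 and 0.06 for the 4 interneuron markers and 0.06, 0.01 and 0.09 for the 5 astrocyte markers. They were -0.02, 0.00 and 0.10 for the 5 microglia markers and 0.00, -0.17 and 0.00 for the 4 measured endothelial markers. The part of cell composition in the ratios of the members was not tested. The array medians ran from 7.89 to 8.71.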

How the data were processed

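RNA of rat organotypic hippocampal cultures was hybridised to 6 Affymetrix RAT2302 arrays. The deposited values are log2 intensities that the authors obtained with RMA, which the submitters' processing notes name; its version, and whether the arrays were scaled jointly, are not given in the sources used here. Of 31099 probe sets, 20832 carried 1 gene symbol in GEO's platform annotation, 436 several and 9831 none. Columns of values left out numbered 0.

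Gabazine minus control was fitted with limma 3.58.1 (R 4.3.3) on all 6 arrays, with the replica as a block, eBayes moderation and Benjamini-Hochberg adjustment over all probe sets at 0.05. The series' design text states that the cultures of a replica came from the same littermates, and same-numbered arrays deviated together from their group means (correlations of 0.79, 0.66 and 0.85). Precision is limited by the number of arrays. The fit was tested on simulated data with normal noise of the same spread for all probe sets and no ties, unlike the deposited values. A tie was an exactly equal value on both arrays of a pair. For the wider pathway the brightest probe set of a gene was used, and genes were named as the highest and the lowest mean of each list, plus any past the threshold. Older symbols were updated through RefSeq, and motifs were searched in the 250 bases before RefSeq start sites of build GRCr8. The members and lists were chosen with earlier results of these data known. Alternatives changed the block, the pairs used, the scaling, the variance model, and the filter on dim or tied probe sets.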

Additional observations from a re-analysis of the deposited data

How the results depend on the processing

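The 3.90-fold difference of Ptgs2 kept its direction and its side of the threshold under every alternative run: its mean log2 ratio was 1.96 with no replicate block (adjusted p = 0.382), 1.95 to 2.01 under other scalings, and 1.26 to 2.44 when 1 pair was left out, with an adjusted p between 0.382 and 0.865 over all alternatives. No member and no gene of the wider pathway passed the adjusted threshold under any alternative. The SE depended on the tied probe sets. With these left out it was 0.11 for Ptges 1368014_at, against 0.05 as reported, and 0.47 for Ptgs2, against 0.59. Over all probe sets, 14 passed without the replicate block, against 0 with it, and the block changed no call of a member. Without the block, every member probe set had the same SE of 0.54. The p-values of the members in that fit thus followed the size of the mean ratio alone. The count of member probe sets higher in all pairs, 3 in the fit as reported, was 6 after centring each array on its median, 5 after quantile normalization, 6 after cyclic loess and 1 with the dimmest 40% of probe sets left out; rescaling moves tied values off 0. With 1 pair left out the count higher in all pairs was 3 to 5, and the count lower in all pairs was 1 to 2. Both Ptges probe sets were among the dimmest 40% and so were absent from that fit. The count lower in all pairs was 1 after quantile normalization and 1 after cyclic loess, against 0.

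Means near 0 changed sign. The Ptger1 probe set 1369254_a_at was at -0.0065 after median centring, -0.00018 after quantile normalization and -0.0069 after cyclic loess, against 0.01 as reported. Ptges2 was at 0.0055 after cyclic loess and between -0.17 and 0.13 with 1 pair left out, highest without pair 1. Ptges3 was between -0.062 and 0.026, highest without pair 1. The dimmer Ptgs1 probe set was between -0.11 and 0.056, above 0 without pair 2 or pair 3. The cause was not tested. Averaging both probe sets brought Ptger3 to 0.01. With no background measure, the signal over background of the dim receptors and of Ptges is not known.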
